A study of Oryza sativa Japonica Group with 238 samples.

Results

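The translatome of RSS1-expressing root cells of rice was compared between plants whose root systems stood in water and plants grown in drained pots. The members were chosen by their labels: the RSS1 line under waterlogging (3 libraries) and the RSS1 line in the control labelled greenhouse I (3 libraries), so 6 of the 238 samples of the series. The rule of choice used no measured value, but earlier results of these data were known when the members and the gene lists were chosen. RNA was obtained by translating ribosome affinity purification (TRAP), in which a tagged ribosomal protein is pulled down with the mRNAs that its ribosomes carry.

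All plants were Oryza sativa cv. Nipponbare carrying the transgene pRSS1:HF-GFP-OsRPL18, a FLAG-tagged ribosomal protein L18 driven by the RSS1 promoter, and the controls carry it as well. Plants grew in a greenhouse in pots of 21 plants, each pot pooled into 1 replicate, and whole roots were collected at 26 days. From day 21 control pots were irrigated daily, while waterlogged pots stood for 5 days with water 2 to 3 cm above the junction of root and shoot. Recovery pots were drained for 1 day after waterlogging and sampled at 27 days. A separate greenhouse control (control II) and submerged plants of the same line, and waterlogged and control I plants of the CMZ, SCR, CASP, LSI1 and 35S lines, served for comparison. The spread used in the tests came from all 30 RSS1 TRAP libraries in 10 environments. These also hold water deficit, recovery from deficit and from submergence, older paddy field plants and younger plate seedlings. The labels do not say whether the line is 1 transformation event; seed stocks were T1 or T2.

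RSS1 (RICE SALT SENSITIVE 1) is known from dividing cells of rice meristems, where it takes part in keeping cells proliferating under stress. Standing water slows the diffusion of oxygen to roots. Rice roots typically answer low oxygen with fermentation, with ethylene trapped in the tissue, and with air channels that carry oxygen to the tip. Non-symbiotic hemoglobins bind oxygen and remove nitric oxide and are known as genes that low oxygen induces in plants.

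The RSS1 gene itself (OS02G0606700) stood higher in this line than in 35S TRAP RNA. Its control I libraries held 319, 396 and 687 TPM and its waterlogging libraries 388, 460 and 516 TPM, against a mean of 6.68 ± 3.35 TPM (SD, n = 3) in the 35S TRAP control I libraries. The RSS1 groups overlapped and the gene did not pass the test (log2 difference 0.03, SE 0.37, adjusted p = 0.9997). TPM is a level scaled for gene length and for the library's total, and depth is unknown for these values. The gene of the tagged protein, OsRPL18 (OS03G0341100), stood at 16290, 31830 and 17380 TPM in the waterlogging libraries, with the second library the highest, and at 16500 to 17650 TPM in control I. Silicon transporter LSI1 (OS02G0745100), a gene of exodermis and endodermis, was present at 173 to 286 TPM in control I and 205 to 288 TPM under waterlogging, so the RNA was not free of transcripts of other cell types. Its control I mean was 218 TPM in RSS1 and 354 TPM in 35S TRAP. For LSI2 (OS03G0107300) these means were 73.0 and 92.8 TPM, and for NRAMP5 (OS07G0257200) 70.3 and 83.9 TPM. Of 2 stele genes, SHR1 (OS07G0586900) had 8.80 and 5.28 TPM and HMA5 (OS04G0556000) 16.7 and 29.3 TPM. The quiescent-center gene QHB (OS01G0854500) lay at 0.420 to 0.869 TPM in control I and at 2.16 to 2.24 TPM under waterlogging, without passing the test (adjusted p = 0.728).

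The first waterlogging library stood apart in transcripts of green tissue. Summed over the 45 tested photosynthesis genes it held 2090 TPM, while the other 5 libraries held 77.2 to 146 TPM. The third waterlogging library, at 146 TPM, and the third control I library, at 146 TPM, were the next highest. No photosynthesis gene was called, 11 of 45 had an unadjusted p under 0.05, and the list's median log2 difference was 1.18 with this library and -0.04 without it. The first waterlogging library also held 98 genes at 5 or more times the highest level of the other libraries plus 1 TPM, against 44 for the first control I library and 0 or 1 for the other 4. Summed markers of other root cells overlapped between the groups: 7 secondary wall and xylem genes held 505 to 858 TPM in control I and 563 to 898 TPM under waterlogging, and 6 root-specific RCc genes held 5431 to 8677 and 6611 to 13190 TPM. Their part in the results was not tested, and none of the 14 marker genes was called. Spearman correlations between the 6 libraries ranged from 0.903 to 0.957. Counts are therefore also given without the first waterlogging library; the part of green tissue in them was not tested. In such bulk samples, fewer cells of a type and less RNA per cell cannot be told apart.

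Most of the waterlogging difference was a loss. Of 27397 genes tested, 121 fell (0.442% of all) and 18 rose (0.0657%), which makes 139 calls (0.507%). A call needed an adjusted p under 0.05 in limma and a log2 difference of at least 1, after adding 1 TPM to each level, a step that shrinks the change of low genes. All log2 differences below are on this scale and are waterlogging minus control I unless another pair is named. The median over all genes tested was -0.01, and 1902 genes (6.94%) had an unadjusted p under 0.05. The groups did not overlap in any of the 139 called genes; this was so in 12.8% of all genes tested. The 121 lower genes started from a median of 31.9 TPM in control I, 26 of them from at least 100 TPM, and 61 fell at least 4-fold on this scale. The 18 higher genes reached a median of 8.29 TPM, and 9 reached at least 10 TPM.

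**Figure D1:**
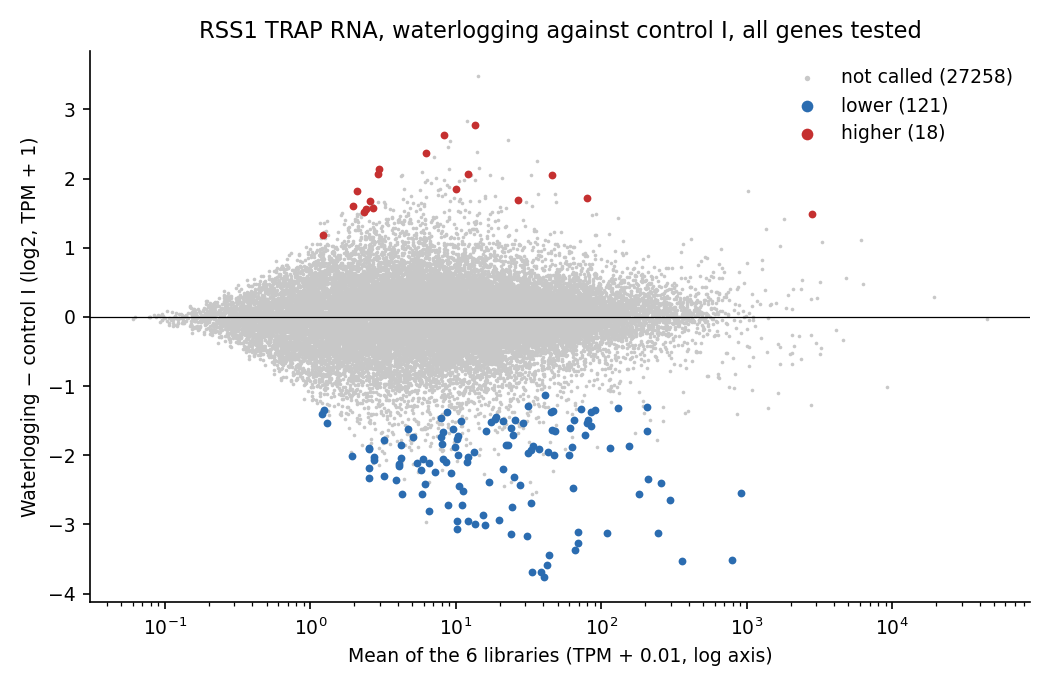
Each point is 1 of the 27397 genes tested, with its mean level over the 6 libraries on the horizontal log axis (TPM + 0.01) and its log2 difference, waterlogging minus control I, on the vertical axis. The 121 lower genes (blue) reach high levels, while most of the 18 higher genes (red) lie at low levels.

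The size of the call set rested on each library. Without the first waterlogging library 60 genes were lower and 10 higher, of which 56 and 8 were among the 121 and the 18. The lower calls numbered 57 without waterlogging library 2 and 70 without waterlogging library 3, and 54, 91 and 69 without control I libraries 1, 2 and 3 in turn; the higher calls numbered 5 to 12. In all 6 of these fits 37 genes were called, 36 lower and 1 higher. With only the 6 libraries in the fit, 58 genes were lower and 5 higher.

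The plot of all genes shows the most abundant lower genes in its lower right part, where the hemoglobins lie. Both hemoglobins were among the most abundant called genes. Non-symbiotic hemoglobin 1 (OS03G0233900) held 1527, 1905 and 955 TPM in control I and 162, 83.8 and 133 TPM under waterlogging. Every waterlogged library was below every control I library (log2 difference -3.52, SE 0.62, adjusted p = 0.0045). Non-symbiotic hemoglobin 2 (OS03G0226200) held 1305, 2252 and 1136 TPM in control I and 298, 210 and 266 TPM under waterlogging. It fell by 2.54 on the log2 scale (SE 0.52, adjusted p = 0.0166) and kept its call in 2 of the 6 fits that left out a library; hemoglobin 1 kept its call in all 6. The other 5 genes of the hemoglobin list were not called, with levels from 6.82 to 90.2 TPM in control I and log2 differences from -0.29 to 0.59.

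The hemoglobins were also measured in control II. Hemoglobin 1 there stood at 384, 609 and 88.7 TPM, and hemoglobin 2 at 404, 575 and 122 TPM. Both genes thus lay lower in control II than in control I, although that difference did not pass the test (adjusted p = 0.306 and 0.187). Against control II, waterlogging gave log2 differences of -1.17 for hemoglobin 1 and -0.26 for hemoglobin 2, and neither was called.

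Several enzymes around phosphoenolpyruvate fell. Phosphoenolpyruvate carboxykinase, which makes phosphoenolpyruvate from oxaloacetate, was the leading one (OS10G0204400). Its libraries held 150, 81.2 and 131 TPM in control I and 16.4, 8.52 and 7.90 TPM under waterlogging (log2 difference -3.37, SE 0.45, adjusted p = 1.5e-04). Its neighbor OS10G0204300, described as the same enzyme, had 14.8, 9.26 and 12.5 TPM in control I and 3.91, 3.55 and 3.69 TPM under waterlogging. Its adjusted p of 0.045 became 0.05335 in a fit blocked by replicate number, and its call was lost whichever library was left out. A pair of adjoining phosphoenolpyruvate carboxylase genes, whose enzyme carboxylates phosphoenolpyruvate, was also lower. OS01G0208700 fell by 1.48 (adjusted p = 0.028) and OS01G0208800 by 1.70 (adjusted p = 0.0295) on the log2 scale, each with a call in 1 of the 6 fits that left out a library. In control II they held 9.14 to 11.8 TPM and 10.1 to 13.5 TPM, inside their waterlogging ranges of 5.96 to 14.0 TPM and 5.44 to 17.7 TPM, and neither was called against that control (-0.19 and -0.14, adjusted p = 1 for both). In all, 4 of 23 genes of gluconeogenesis and phosphoenolpyruvate metabolism were lower (0.442% of all genes tested were) and none higher. The list's median was -0.19. The summed level of the list was 893 to 1378 TPM in control I, 576 to 776 TPM under waterlogging and 621 to 663 TPM in control II. The most abundant gene of the list, pyruvate phosphate dikinase OS03G0432100, averaged 382 TPM in control I and 98.8 TPM under waterlogging and was not called (adjusted p = 0.223).

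Nitrogen metabolism contributed a further set, chosen after its values were seen and therefore given as a description. NADH-dependent glutamate synthase (OS05G0555600), which makes glutamate from glutamine and 2-oxoglutarate, had 59.3, 28.7 and 42.9 TPM in control I and 3.54, 4.87 and 3.34 TPM under waterlogging. It fell by 3.14 on the log2 scale (SE 0.40, adjusted p = 1.0e-04) and was called whichever library was left out. Aspartate aminotransferase (OS06G0548000) went from 118 ± 21.8 to 35.5 ± 7.83 TPM (SD, n = 3 each) and kept its call in 3 of the 6 fits, not in the fit without the first waterlogging library. Alanine aminotransferase (OS10G0390500), whose product accumulates in flooded plants, went from 185 ± 5.62 to 75.1 ± 17.3 TPM and lost its call in every fit that left out a library. These 3 were the called genes among 36 enzymes of nitrogen assimilation, whose median log2 difference was -0.37. Of all genes tested 0.507% were called. The summed level of the list was 4363 to 5076 TPM in control I and 3585 to 4395 TPM under waterlogging. In control II it was 3183 to 4324 TPM, which overlapped the waterlogging range. Cytosolic glutamine synthetase OS03G0223400 averaged 1247 TPM in control I and 470 TPM under waterlogging without passing the test (adjusted p = 0.271). The allantoin permease-like gene OS12G0503000 fell from 27.9 ± 2.88 to 2.97 ± 0.580 TPM and was called in all 6 fits.

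A gene of each of the last steps of ethylene synthesis was lower. ACC oxidase OS11G0186900, which forms ethylene from its precursor ACC, had 64.7, 58.9 and 38.1 TPM in control I and 17.7, 12.3 and 11.6 TPM under waterlogging. The groups were apart (log2 difference -1.87, SE 0.33, adjusted p = 0.0044), and the call held without each library in turn. ACC synthase OS01G0192900, which makes ACC, went from 9.25, 7.66 and 7.91 TPM to 2.32, 1.07 and 2.07 TPM. Its adjusted p of 0.042 passed the threshold with all 6 libraries and in none of the fits that left out 1. Of the 21 genes of ethylene synthesis and signalling these were the called ones, and the median was -0.22. Over all genes tested the share called was 0.507%. Among 62 gibberellin and cytokinin genes, cytokinin-O-glucosyltransferase 2-like OS08G0168700 was lower (16.0 ± 3.80 to 2.51 ± 0.432 TPM) and cytokinin-N-glucosyltransferase 1-like OS03G0824600 was higher (0.356, 1.31 and 0.569 TPM to 4.28, 4.26 and 3.60 TPM). Both belong to enzyme families that attach glucose to cytokinins; the higher one lost its call without the first waterlogging library. None of 130 auxin genes was called by limma, with 12 at an unadjusted p under 0.05. An IAA-amino acid hydrolase-like gene outside that list (OS03G0836800), of a family that frees auxin from its conjugates, was named after its values were seen. It fell from 433 ± 139 to 78.8 ± 9.88 TPM (SD, n = 3 each) and had an adjusted p of 0.0546 without the first waterlogging library.

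Chitinases and proteinase inhibitors were among the lower genes. A gene of glycosyl hydrolase family 18 (OS05G0247100), the family of many plant chitinases, had 905, 564 and 522 TPM in control I and 65.8, 46.6 and 54.1 TPM under waterlogging. It had the smallest adjusted p of the comparison (log2 difference -3.53, SE 0.33, adjusted p = 9.5e-07). Chitinase-like OS05G0399300 fell by 2.56 on the log2 scale (adjusted p = 9.9e-06), from 308 ± 42.2 to 53.6 ± 22.3 TPM. The class III chitinase homologue OS11G0701100 fell by 3.00 (adjusted p = 0.0068). Proteinase inhibitors block protein-digesting enzymes of insects and microbes. Inhibitor gene OS12G0548401 held 448 to 570 TPM in control I and 58.5 to 105 TPM under waterlogging. OS12G0548700, described as similar to MPI, held 460, 407 and 457 TPM in control I and 82.1, 44.2 and 33.3 TPM under waterlogging (log2 difference -3.13, SE 0.42, adjusted p = 1.6e-04). A Bowman-Birk trypsin inhibitor (OS01G0124401) and a Kazal-type inhibitor (OS12G0455000) were lower too, the latter not without the first waterlogging library. Of 130 genes of the defence and chitinase list 5 were lower (0.442% of all genes tested were) and none higher, at a median of -0.27. In this list 27 (20.8%) had an unadjusted p under 0.05 in limma, against 6.94% of all genes. Family 18 gene OS05G0247100 and OS12G0548700 were named as deep falls and stand outside this list, whose members were matched by words in the descriptions. So does the Bowman Birk inhibitor-like gene OS01G0124200, which was lower as well (-1.30, adjusted p = 0.0398) and was named after its values were seen. Of 78 WRKY factors, regulators of defence genes, none was called by limma, and 2 had an unadjusted p under 0.05.

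Enzymes of detoxification and the cell wall gave scattered calls. Glutathione S-transferases conjugate reactive compounds to glutathione; 2 of 49 were lower, GST 19-like OS07G0468100 (46.7 ± 7.70 to 8.41 ± 4.53 TPM) and GST 30-like OS10G0530900 (126 ± 22.8 to 42.3 ± 10.9 TPM). Among 117 class III peroxidases, OS05G0162000 and OS06G0547400 were lower and peroxidase 24-like OS12G0530100 was higher. Among 181 cytochromes P450, OS03G0593600 was lower and OS10G0378100 was higher. Both of the lower peroxidases and both cytochromes P450 lost their call without the first waterlogging library. The higher peroxidase was called in 3 of the 6 fits that left out a library. Germin-like protein 8-7 (OS08G0189600) was the called member of 80 germin and lipid transfer protein genes, at 39.7, 41.6 and 47.3 TPM in control I and 3.66, 6.06 and 7.31 TPM under waterlogging. The plot of gene lists shows these calls as single points. List medians were -0.38 for glutathione S-transferases, 0.03 for peroxidases, -0.02 for cytochromes P450 and 0.07 for germin and lipid transfer proteins. An unadjusted p under 0.05 in limma was found in 22.4%, 15.4%, 8.29% and 17.5% of them in turn, against 6.94% of all genes. Calls made up 0.507% of all genes. Summed glutathione S-transferases held 3760 to 4608 TPM in control I and 3229 to 3370 TPM under waterlogging.

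**Figure D2:**
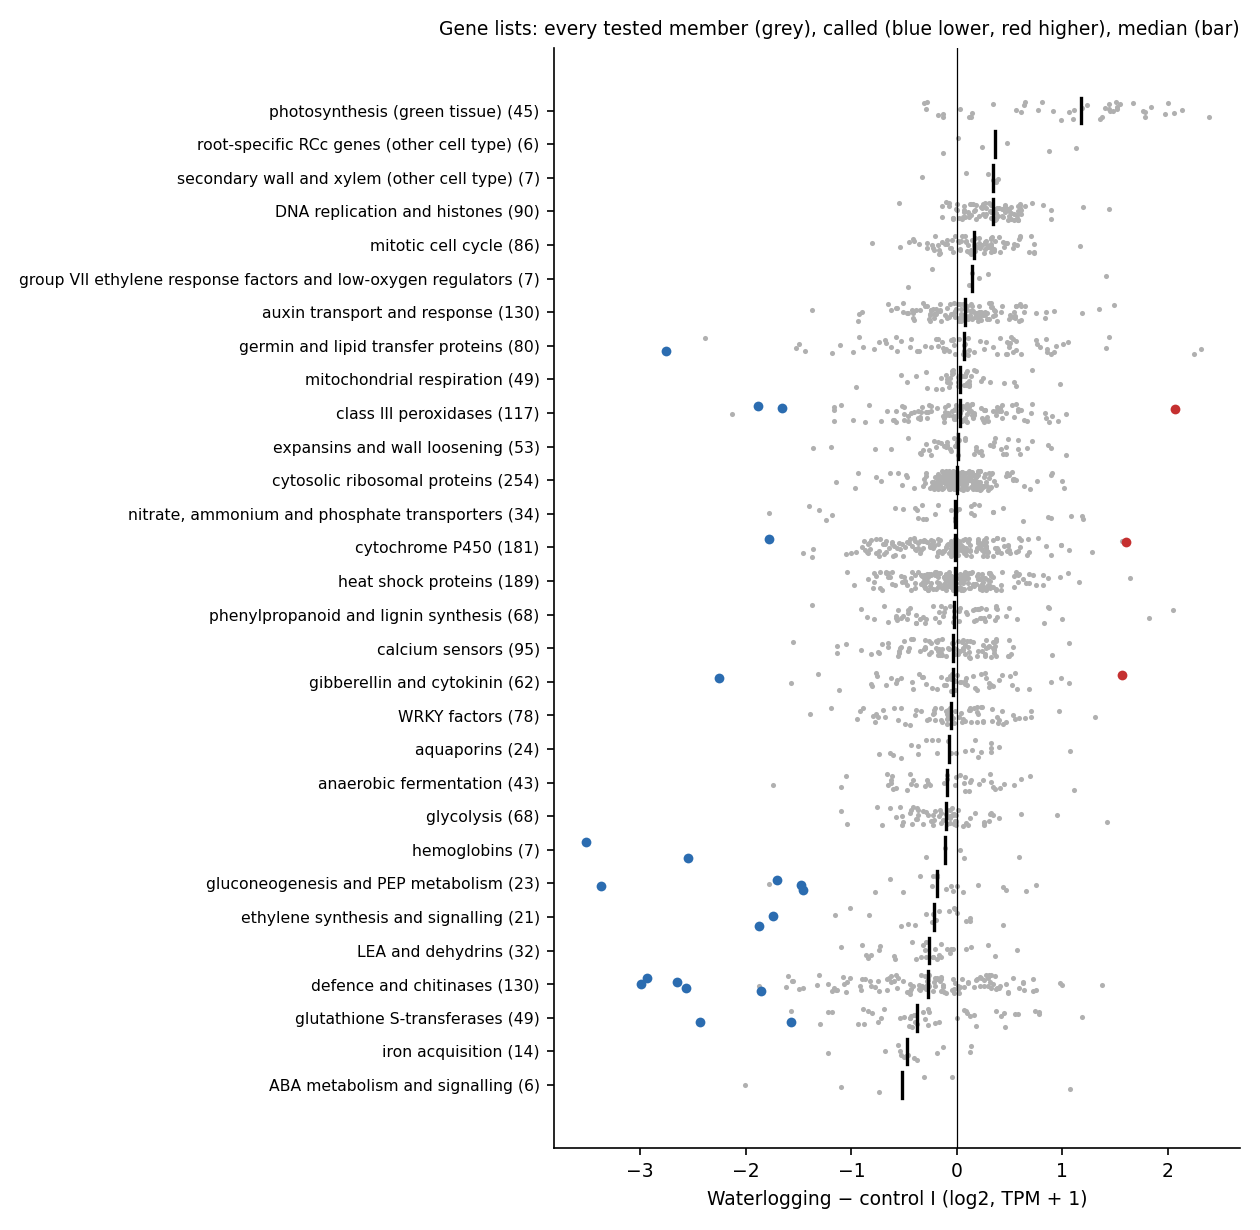
Each row is a list with its number of tested genes, each point is 1 gene's log2 difference (waterlogging minus control I), blue and red points were called lower and higher, and bars are list medians. Called genes lie apart from the bulk of their lists; the photosynthesis list, with its median of 1.18, rests on the first waterlogging library.

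A run of near neighbors fell furthest. The deepest fall of the whole comparison, and 6 of the 15 deepest, came from genes that the table describes as similar to H0211A12, for which it gives no function. These 6 lie within 11 consecutive genes of the deposited order, from OS04G0308400 to OS04G0310200, and the 5 genes between them were not called. OS04G0308600 had 73.9, 47.4 and 108 TPM in control I and 2.06, 8.34 and 4.48 TPM under waterlogging (log2 difference -3.77, SE 0.42, adjusted p = 9.9e-06). OS04G0310100 had 133, 85.5 and 160 TPM in control I and 12.6, 11.3 and 11.3 TPM under waterlogging. Log2 differences of the 6 ranged from -3.77 to -3.11, and 5 of them were called whichever library was left out; OS04G0308500 was called in 1 of the 6 fits and not without the first waterlogging library. Summed over 7 such genes, control I held 563, 349 and 715 TPM and waterlogging 33.7 to 59.9 TPM. The list was picked after its values were seen. As near-identical copies may share reads, the 6 genes may not be 6 separate measurements.

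Other calls also lay side by side. Of the 139 called genes 44 adjoined another called gene, in 21 runs of up to 3 genes, and no run mixed directions. Several runs pair an annotated gene with one described only as hypothetical, such as ACC oxidase OS11G0186900 with OS11G0187001. The sources used here give no strand of counting, so reads of overlapping or antisense genes cannot be told apart. In all, 28 called genes were described as hypothetical, and 116 belonged to none of the functional lists. Among the deepest falls without a list were OS10G0554200, described by a receptor domain (93.8, 95.0 and 55.1 TPM to 6.99, 6.11 and 5.97 TPM), herbicide safener binding protein-like OS11G0306400 (-3.17), the conserved hypothetical gene OS02G0583700 (-3.12) and BURP domain gene OS06G0302000 (-3.07).

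Rises were fewer, lower in level and less stable. Carotenoid cleavage dioxygenase-like OS01G0746400, of a family that cuts carotenoids into signals and pigments, had the largest rise. It held 1.28, 2.47 and 5.15 TPM in control I and 23.6, 25.6 and 22.9 TPM under waterlogging (log2 difference 2.78, SE 0.55, adjusted p = 0.012), and was called in 3 of the 6 fits, with an adjusted p of 0.0523 without the first waterlogging library. The MADS-box factor OS06G0217300, described as MADS55, was the higher gene called in all 6 fits. Its libraries held 0.625, 1.81 and 1.69 TPM in control I and 12.7, 9.19 and 11.1 TPM under waterlogging (log2 difference 2.37, SE 0.31, adjusted p = 1.1e-04). In control II it held 5.57, 5.00 and 7.87 TPM, and waterlogging was not called against that control (0.76, adjusted p = 0.492). The most abundant riser was OS10G0552600, described as similar to Tfm5, with 1468, 1425 and 1313 TPM in control I and 2327, 4843 and 5395 TPM under waterlogging. It rose by 1.49 (SE 0.31, adjusted p = 0.019) and was called in 1 of the 6 fits, the one without the first waterlogging library. The tonoplast aquaporin TIP4-3-like OS01G0232100 varied widely among waterlogged libraries (11.6, 1.18 and 3.93 TPM) over control I values of 0.163 to 0.320 TPM; its call was lost without the first waterlogging library. The MYB-type factor OS03G0252900, described as DIVARICATA-like, had 25.0 to 43.3 TPM in control I and 81.3 to 170 TPM under waterlogging (adjusted p = 0.037) and was called in 1 of the 6 fits. Metacaspase-type peptidase gene OS03G0388900, described by a caspase domain, went from 12.2 ± 3.57 to 41.5 ± 10.1 TPM and had an adjusted p of 0.0683 without the first waterlogging library. A sulfotransferase (OS04G0526300), a lipase family gene (OS12G0614100) and OS01G0127200 and OS01G0151750, described by no function, completed the risers above 5 TPM. Their log2 differences ran from 1.85 to 2.63. The sulfotransferase, OS01G0127200 and OS01G0151750 were each called in 2 of the 6 fits, and the lipase family gene in 3. OS01G0151750 lost its call without the first waterlogging library.

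No gene of cell division was called. Of 90 genes of DNA replication and histones none was called by limma, and 10 (11.1%) had an unadjusted p under 0.05. Their median log2 difference was 0.34, against -0.01 over all genes tested, and 11 of the 90 were below 0. The most abundant, histone H2A OS03G0279200, held 558, 576 and 460 TPM in control I and 1108, 897 and 569 TPM under waterlogging; its groups overlapped at the third waterlogged library. The list's median stayed between 0.29 and 0.43 when any 1 of the 6 libraries was left out, and the summed level was 7681 to 9953 TPM in control I and 9511 to 14130 TPM under waterlogging. Of 86 mitotic cell cycle genes none was called, 3 had an unadjusted p under 0.05, and the median was 0.16. Cytosolic ribosomal protein genes, 254 in number, had a median of 0.00, no call and 4 unadjusted p under 0.05.

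Genes of fermentation and glycolysis and the low-oxygen regulators were not called either. Of 43 genes of anaerobic fermentation none passed limma's test, and 5 had an unadjusted p under 0.05; the median was -0.09. Their summed level was 5149 to 6202 TPM in control I, 3718 to 4922 TPM under waterlogging and 3261 to 4099 TPM in control II. Alcohol dehydrogenase OS11G0210500 held 428, 696 and 618 TPM in control I and 508, 651 and 636 TPM under waterlogging. Pyruvate decarboxylase OS03G0293500, which feeds ethanol fermentation, held 307 to 434 TPM in control I and 386 to 411 TPM under waterlogging. Sucrose synthase OS03G0401300 held 2409 to 3474 TPM in control I and 1418 to 2539 TPM under waterlogging (adjusted p = 0.905). The 68 glycolysis genes had no call, 6 unadjusted p under 0.05 and a median of -0.10. Group VII ethylene response factors and related regulators of low oxygen, 7 genes, had no call and 1 unadjusted p under 0.05. Iron acquisition genes had no call and no unadjusted p under 0.05 in 14 genes, with sums of 11550, 1132 and 5214 TPM in the waterlogged libraries against 4181 to 7711 TPM in control I. Nicotianamine synthase OS03G0307200, an enzyme of the phytosiderophore pathway, alone ran from 496 to 6470 TPM among waterlogged libraries.

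Greenhouse control II gave another reference. Against control I, 1 gene (0.00365% of 27397) was called in control II, and none of the 139 waterlogging genes. With control II in place of control I, waterlogging gave 141 lower (0.515%) and 15 higher (0.0548%) calls, among them 67 of the 121 lower and 4 of the 18 higher genes. As both comparisons share the waterlogging libraries, this is a description. Of the 121 lower genes, 58 stood in control II at or above their control I mean, and 27 stood under 0.5 of it. The 121 were chosen partly on their control I levels, and these shares were not computed over all genes. The H0211A12-like genes, MPI-like OS12G0548700 and ACC oxidase had control II levels above every waterlogging library, as the plot by library shows. Hemoglobin 1, phosphoenolpyruvate carboxykinase OS10G0204400 (41.4, 60.2 and 19.5 TPM) and glutamate synthase (12.4, 17.1 and 5.34 TPM) had lower levels in control II than in control I.

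**Figure D3:**
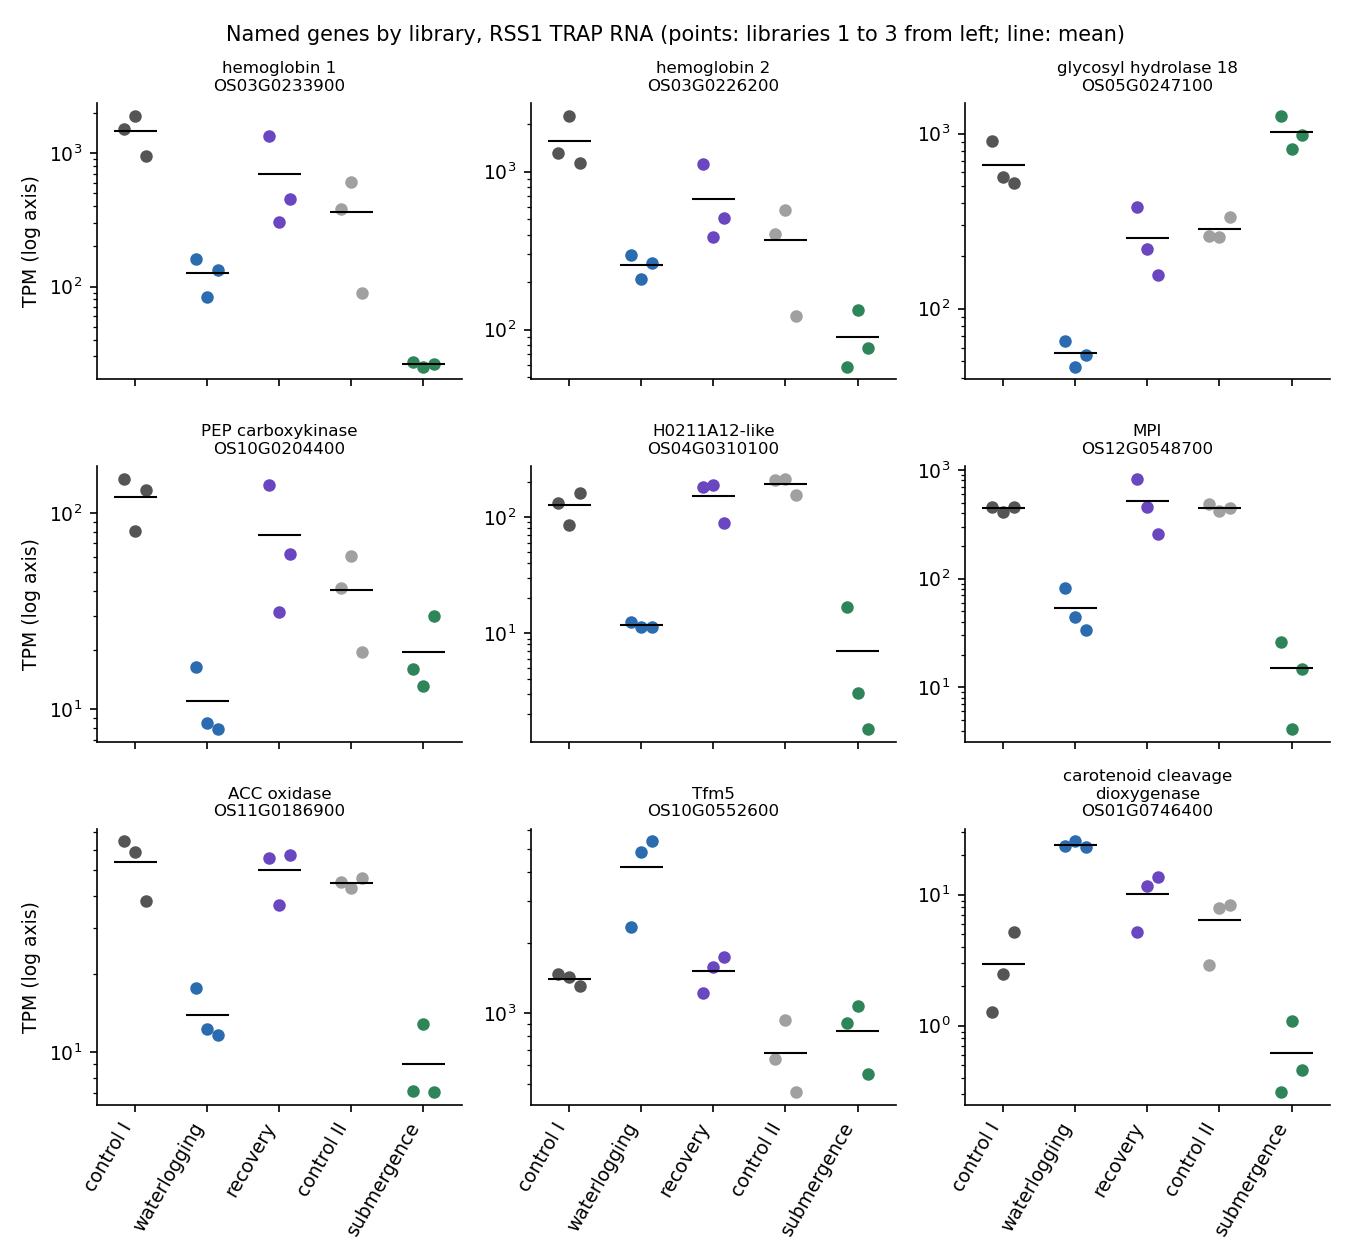
Levels in TPM (log axis) of 9 named genes in each RSS1 TRAP library, with points for libraries 1 to 3 from left to right and a line at the mean of each group. Waterlogging points lie apart from control I in all 9 panels; recovery, control II and submergence differ from gene to gene.

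After a day of drainage, part of the genes stood nearer to their control I levels than under waterlogging. Against waterlogging, 127 genes were higher (0.464% of 27397) and 11 lower (0.0402%) in recovery. Of the 121 lower genes 48 were among the higher ones, and of the 18 higher genes 3 were among the lower ones, but these comparisons share the waterlogging libraries. The recovery calls numbered 138 in all. They fell to 80 without waterlogging library 3, 77 without recovery library 2 and 91 without recovery library 3, and were 98 to 101 without each of the other 3. Against control I, with which this comparison shares its libraries, recovery had 34 lower (0.124%) and 74 higher (0.27%) calls, among them 13 of the 121 lower and 1 of the 18 higher genes. In recovery 71 of the 121 lower genes stood at 0.5 or more of their control I mean and 30 at or above it. These genes were chosen on their control I and waterlogging levels, so the counts are a description. The shares over all genes were not computed. The H0211A12-like gene OS04G0308600 stood at 80.4, 114.5 and 51.7 TPM, around its control I levels. Hemoglobin 1 spread over 1352, 304 and 452 TPM, and its difference from waterlogging was not called (adjusted p = 0.15). Germin-like protein 8-7 stayed low at 9.46, 4.32 and 5.78 TPM, and chitinase OS05G0399300 at 112, 101 and 73.3 TPM. Tfm5-like OS10G0552600 came back to 1225, 1580 and 1743 TPM, next to its control I level, and was lower than under waterlogging (log2 difference -1.39, adjusted p = 0.029).

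Complete submergence, read against control II and so in other libraries than those of the waterlogging contrast, split the waterlogging genes. Submergence called 5317 genes higher (19.4%) and 5178 lower (18.9%). Of the 121 genes lower under waterlogging, 58 were lower, 36 were higher and 27 were not called. Of the 18 higher genes none was higher and 5 were lower. Lower in both were the 6 H0211A12-like genes (OS04G0308600 at 0.485, 2.13 and 1.26 TPM under submergence), both hemoglobins, MPI-like OS12G0548700 and ACC oxidase. Glycosyl hydrolase OS05G0247100 was lower under waterlogging and higher under submergence, at 1262, 822 and 976 TPM against 261, 257 and 334 TPM in control II (log2 difference 1.83, adjusted p = 5.4e-05). Chitinase OS05G0399300 was higher as well (1.15, adjusted p = 0.0017), and so were OS02G0583700 (4.24) and the allantoin permease-like gene OS12G0503000 (3.37, from 12.7 ± 3.95 to 142 ± 50.9 TPM). The largest rise under submergence among waterlogging genes was in OS12G0428000, described as senescence-associated protein DIN1 and named for that rise. Its mean went from 20.7 to 3.25 TPM under waterlogging and from 7.41 to 1303 TPM under submergence; its waterlogging call was lost without the first waterlogging library and in the fit blocked by replicate number (adjusted p = 0.05335). Phosphoenolpyruvate carboxylase genes OS01G0208700 and OS01G0208800 were higher too (1.39 and 1.62). Submergence libraries of OS01G0208800 held 30.2 to 47.9 TPM, against 31.3 to 43.9 TPM in control I and 10.1 to 13.5 TPM in control II. Waterlogging and submergence were read against different controls, so opposite calls are not a direct comparison of the treatments. Genes called the same way in both numbered 33, 35 and 39 without waterlogging libraries 1, 2 and 3 in turn, and 32, 52 and 30 without control I libraries 1, 2 and 3 in turn.

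**Figure D4:**
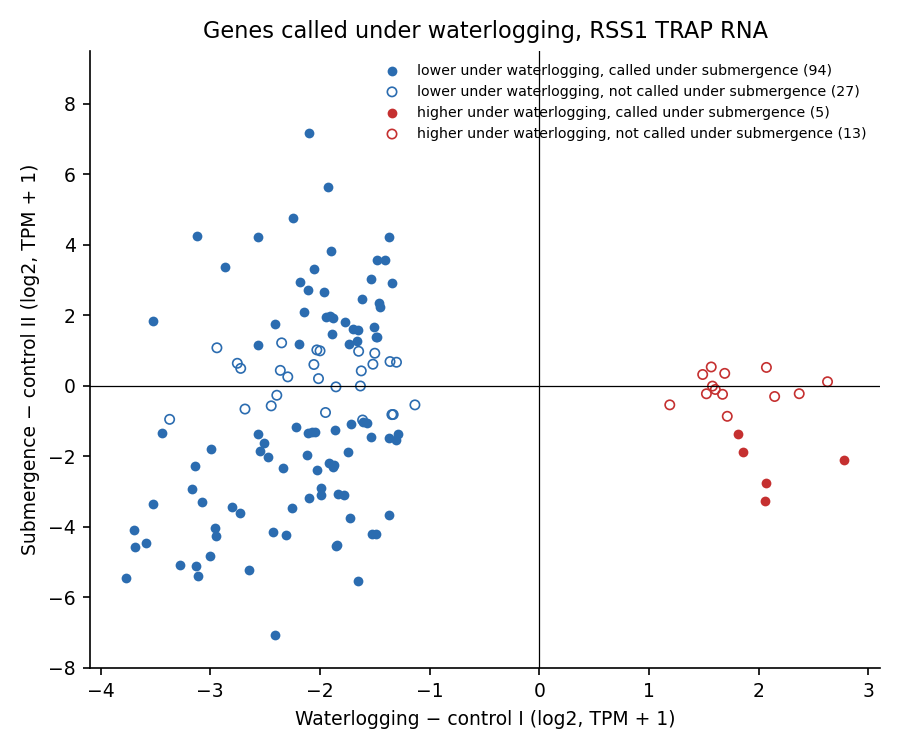
Each point is 1 of the 139 waterlogging genes, with its log2 difference under waterlogging (against control I) on the horizontal axis and under submergence (against control II) on the vertical axis; filled points were called under submergence. Blue points, lower under waterlogging, spread above and below 0 on the vertical axis (36 called higher, 58 lower), while the called red points are all below 0.

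The same genes were followed in other RNA of the same treatment, from libraries of their own. In total RNA of the 35S line, 57 of the 121 lower genes were lower (0.509% of 26506 genes were) and 6 of the 18 higher genes were higher (0.328% were). In translated RNA of that line 11 of 119 lower genes with a value were lower (0.148% of all), and none of 15 higher genes was higher (0.0228% of all). The CMZ line called 9 of 121 (0.0398% of all), SCR 1 of 121 (0.00364%), CASP 6 of 120 (0.0259%) and LSI1 14 of 115 (0.794%), all lower. Higher calls numbered none of 18 in CMZ (0.0109% of all), none of 16 each in SCR and CASP (0% of all) and none of 11 in LSI1 (0.752% of all). None of the 139 was called in the opposite direction in any of these 6 sets, and 72 were called in none of them. Median log2 differences of the 121 genes were -1.46 in 35S total RNA, -0.76 in 35S TRAP, -1.50 in CMZ, -1.23 in SCR, -1.38 in CASP and -0.47 in LSI1. The medians of all genes tested in these sets ran from -0.04 to 0.18. Family 18 glycosyl hydrolase OS05G0247100 and chitinase OS05G0399300 were called lower in 4 of the 6 sets, the highest number. ACC oxidase OS11G0186900 was lower in 35S TRAP (-3.94), LSI1 (-3.94) and total RNA (-1.57).

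**Figure D5:**
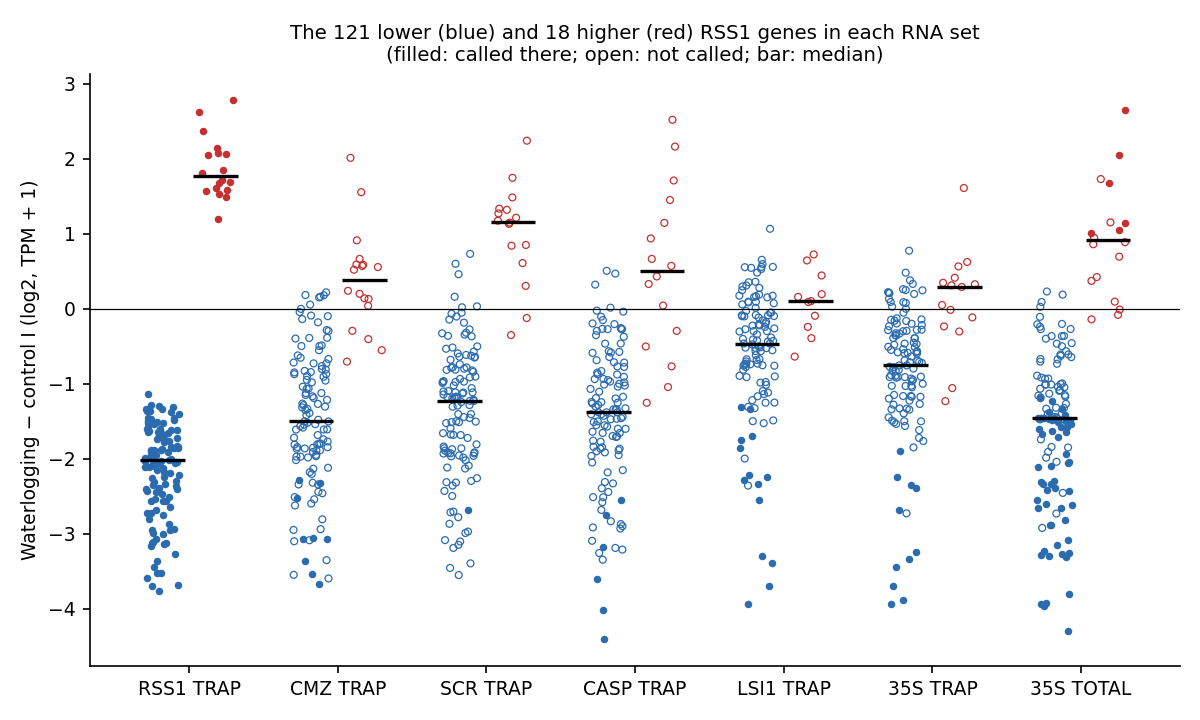
Log2 differences, waterlogging minus control I, of the 121 lower (blue) and 18 higher (red) RSS1 genes in 7 RNA sets, filled where called in that set and open where not, with bars at the medians. The blue medians are below 0 in every set and nearest to 0 in LSI1 and 35S TRAP.

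Whether the response differed between RSS1 cells and other RNA was tested directly. Against the mean response of the CMZ, SCR, CASP and LSI1 lines, limma called none of 27628 genes, and 489 (1.77%) had an unadjusted p under 0.05. Against the 35S TRAP response it called 9 of 27798 genes (0.0324%) on the adjusted p alone, 8 with a lower (0.0288%) and 1 with a higher (0.0036%) response in RSS1; 1281 had an unadjusted p under 0.05. The lower ones included the H0211A12-like genes OS04G0308600 (difference of log2 differences -2.88, SE 0.51, adjusted p = 0.0093) and OS04G0309900 (-3.09, adjusted p = 0.010), the class III chitinase homologue OS11G0701100 (-3.48, adjusted p = 0.036), subtilisin-like peptidase OS01G0702300 (-2.71), GST 19-like OS07G0468100 (-2.63) and the dehydrogenase family gene OS02G0511400 (-2.78). All 9 had means under 10 TPM in the 35S TRAP control I libraries: 1.15 TPM for OS04G0308600 and 8.28 TPM for OS07G0468100, for example, against 76.3 and 46.7 TPM in RSS1 control I. On the scale used, a gene near 1 TPM can fall by no more than about 1. OS01G0702300 (0.138 TPM in 35S control I) and the sulfotransferase family gene OS12G0270900 (0.129 TPM) did not pass the filter in 35S TRAP RNA alone and entered through their RSS1 levels, so for OS01G0702300 a fall in 35S could not have been seen. In total RNA of the 35S line OS04G0308600 averaged 61.7 ± 15.5 TPM in control I and 2.26 ± 1.23 TPM under waterlogging. The number of calls was 1 without the third RSS1 control I library and 2 without the third 35S control I library, which held 113600 TPM of OsRPL18. With no library beyond those 4 groups the number was 0.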

How the data were processed

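Per the table's summary sheet, the authors quantile-normalized reads with limma voom and deposited TPM values for genes above 3 cpm in at least 1 condition. Per the submitters' processing notes, tools included TopHat2, Bowtie2, HOMER and limma, with rice build IRGSP-1.0. The sources used here give neither depth nor counting strand. From the deposited TPM, log2(TPM + 1) was fitted with limma 3.58.1 (R 4.3.3, trended variance) over 30 RSS1 TRAP libraries in 10 environments, for genes with at least 1 TPM in 3 libraries; p-values were Benjamini-Hochberg adjusted over all genes tested. Fits were tested on simulated data. Same-numbered control I and waterlogging libraries deviated together (r = 0.22, 0.20 and 0.31), so a fit with the replicate number as a block was run as an alternative. Calls and adjusted p-values come from the fit without this block unless the block is named. Named genes were the 15 deepest falls and up to 15 largest rises with a mean of at least 5 TPM, called list members, interaction genes, the most abundant members of lists with no call, and markers. The members and lists were chosen with earlier results of these data known. Gene names are the table's descriptions; no identifier matched a symbol table, and promoter sequences were not analysed here. Replicates are pots.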

Additional observations from a re-analysis of the deposited data

Results flagged for a closer look

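The waterlogging response differed between RSS1 TRAP and 35S TRAP RNA in 9 genes by limma's interaction test (adjusted p under 0.05), and these are the results listed for a closer look. The difference of log2 differences, RSS1 minus 35S, was -2.71 for the subtilisin-like peptidase OS01G0702300, -2.88 for OS04G0308600 and -3.09 for OS04G0309900, both H0211A12-like. It was -2.78 for the dehydrogenase family gene OS02G0511400, -2.63 for GST 19-like OS07G0468100 and -3.48 for the class III chitinase homologue OS11G0701100. The hypothetical genes OS01G0608900 and OS02G0117750 gave -1.94 and -2.43. The sulfotransferase family gene OS12G0270900 gave 1.03, at mean levels of 0.421 TPM in RSS1 control I and 1.79 TPM under waterlogging. In 35S TRAP control I all 9 had means under 10 TPM. OS01G0702300 (0.138 TPM) and OS12G0270900 (0.129 TPM) did not pass the filter there and were tested through their RSS1 levels. OS01G0702300 had almost no room to fall in 35S, so its difference is no measure of the 35S response. Room was also small for OS04G0308600, OS04G0309900, OS01G0608900, OS02G0117750 and OS11G0701100 (35S control I means of 1.15, 0.763, 0.731, 0.551 and 1.59 TPM). Under waterlogging the 35S means of these genes were 0.153, 0.151, 0.770, 1.94 and 2.68 TPM in turn. In limma's 35S TRAP fit the log2 differences of OS04G0308600 and OS04G0309900 were -0.88 and -0.60. Neither was called there (adjusted p = 0.205 and 0.535). Whether the low levels bounded these differences was not tested. With only the 4 groups compared in the fit, limma called 0 genes. In total RNA of the 35S line, OS01G0702300, OS04G0308600, OS04G0309900, OS02G0511400, OS07G0468100 and OS11G0701100 were called lower under waterlogging. Their log2 differences there were -2.30, -4.30, -3.94, -2.04, -2.42 and -2.55 in turn. OS01G0608900 (-1.04), OS02G0117750 (-0.22) and OS12G0270900 (0.66) were not called in that RNA.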

How the results depend on the processing

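No called gene among those named changed direction under the alternatives run. Some named genes that were not called and lie near 0 changed sign, such as the RCc gene OS10G0349300 (-0.14, and 0.003 with a pseudocount of 0.1). The photosynthesis median went from 1.18 to -0.04 without waterlogging library 1, and the hemoglobin median from -0.11 to 0.03 without control I library 2. Leaving out 1 library gave 54 to 91 lower and 5 to 12 higher waterlogging calls, 77 to 101 recovery calls, 30 to 52 genes called the same way under submergence, 7 to 10 called the same way in 35S TRAP RNA, 1 to 11 genes that differed from the 35S response and 0 to 3 that differed from the 4 other lines. With only the groups compared in the fit, which leaves fewer samples, these were 58 lower, 5 higher, 35 shared with submergence, 3 shared with 35S TRAP and 0 different from 35S. A filter of 5 TPM gave 10 higher calls. Pseudocounts of 0.1 and 5 gave 1 and 23 genes that differed from 35S; the cause was not tested. With the replicate block, 127 genes were lower and 22 higher, 133 of the 139 calls remained, and among named genes OS10G0204300 (-1.46) and OS12G0428000 (-2.10) lost their call; the block changed no other call of a named gene and moved no count by over 1.5 times. The block was also run with only the groups compared, an alternative chosen after seeing the data (85 lower, 13 higher), as was the mean of both controls as reference (169 lower, 17 higher). For the 4 lines, fits of only the groups compared and without field and plate equal the fit as reported, and the block was not run. Over all alternatives, the 48 named called genes kept their call in 663 and lost it in 198 comparisons. Depth is unknown, so counting error could not be set beside the TPM values.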
